A study of Mus musculus with 6 samples.

Results

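The 9 genes described here, P2ry12, P2ry13, Tmem119, Cx3cr1, Csf1r, Sall1, Gpr34, Siglech and Selplg, mark the resting, or homeostatic, state of microglia, the resident macrophages of the brain. They were taken by symbol from a table of 36758 genes, each symbol matched 1 gene ID, and all 9 passed the filter on low values. RNA sequencing was done on 6 libraries of brain RNA from C57BL/6J mice, which the series' text gives as 6 months of age. 3 libraries came from mice fed 0.12% TMAO (trimethylamine N-oxide, an oxidation product of a gut bacterial metabolite) each day for 16 weeks, and 3 came from mice fed water as vehicle for 16 weeks. The labels name no genetic change, no stroke surgery and no step that separates microglia from other cells. The extraction protocol mentions pooled RNA in a template line left blank, and the labels do not tie the replicates to separate animals. All p-values therefore measure the spread between these libraries only, and that spread may be technical.

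Microglia depend on signalling through the receptor tyrosine kinase CSF1R for survival. They sense nucleotides from damaged cells through the G protein-coupled receptor P2RY12 and the neuronal chemokine fractalkine through CX3CR1. Expression of this gene set is maintained by TGF-beta signalling and by transcription factors that include PU.1, MEF2C and SALL1, and P2ry12, Tmem119 and Sall1 are commonly lower in activated microglia. Some members are not specific to microglia. Csf1r, Cx3cr1 and Selplg are also expressed by monocytes and other macrophages, Siglech by plasmacytoid dendritic cells and P2ry12 by platelets.

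P2ry12 and P2ry13 are neighbours on the minus strand of mouse chromosome 3 (GRCm38 annotation, matched by gene ID). P2ry12 (ENSMUSG00000036353) lies at chr3:59216272-59262871 and P2ry13 (ENSMUSG00000036362) at chr3:59207892-59210882. Both lie inside Med12l, a Mediator subunit gene on the opposite strand. Tmem119 (ENSMUSG00000054675, chr5:113793729-113800516) and Selplg (ENSMUSG00000048163, chr5:113818536-113832644) lie near each other on the minus strand of chromosome 5. Gpr34 (ENSMUSG00000040229, chrX:13632089-13640858, plus strand) lies inside Cask, which is on the opposite strand. Siglech (ENSMUSG00000051504) lies on chromosome 7. Cx3cr1 (ENSMUSG00000052336) lies on chromosome 9.

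RefSeq start-site windows on GRCm38.p6, from 250 bases before to 50 after the start, were at hand for 5 of the 9 members. The windows of the neighbours P2ry12 (chr3:59262936-59263235) and P2ry13 (chr3:59210833-59211132) are shown because these genes had the smallest p of the 9. That of Cx3cr1 (chr9:120068247-120068546) is shown because it holds a match to a loose MEF2 search pattern. All 3 are from the minus strand and run 5′ to 3′, and capitals mark a motif match.
P2ry12: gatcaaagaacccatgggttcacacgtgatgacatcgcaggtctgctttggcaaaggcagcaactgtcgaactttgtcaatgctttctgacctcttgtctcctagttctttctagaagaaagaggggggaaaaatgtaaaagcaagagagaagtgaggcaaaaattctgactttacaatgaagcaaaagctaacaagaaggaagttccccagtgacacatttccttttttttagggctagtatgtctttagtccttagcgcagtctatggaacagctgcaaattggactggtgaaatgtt
P2ry13: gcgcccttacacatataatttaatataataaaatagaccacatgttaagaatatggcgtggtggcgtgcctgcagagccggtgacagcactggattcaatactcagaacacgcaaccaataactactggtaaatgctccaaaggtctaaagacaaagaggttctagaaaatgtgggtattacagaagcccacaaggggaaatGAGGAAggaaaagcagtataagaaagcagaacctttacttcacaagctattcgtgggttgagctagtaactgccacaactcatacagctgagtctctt
Cx3cr1: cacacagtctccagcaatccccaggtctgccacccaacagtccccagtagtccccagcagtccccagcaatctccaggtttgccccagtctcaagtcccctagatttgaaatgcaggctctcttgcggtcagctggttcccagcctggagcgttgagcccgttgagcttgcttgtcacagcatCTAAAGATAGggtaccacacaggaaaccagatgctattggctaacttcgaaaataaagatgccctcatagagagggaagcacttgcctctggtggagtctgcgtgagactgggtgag
Both strands were searched for the PU.1 core GAGGAA, the longer PU.1 site GAGGAAGT that contains it and the PU.1-IRF composite (GGAA and GAAA with 2 bases between). A loose MEF2 pattern (CTA and TAG with any 4 bases between) was also searched for. GAGGAA was in the windows of P2ry13 and Siglech and in 28.3% of all 32851 windows. The MEF2 pattern matched in the Cx3cr1 window, with AAGA as the 4 middle bases, and in 3.69% of all windows. As any middle bases were allowed, a match need not be a MEF2 site. The other motifs, held by 3.20% and 2.72% of all windows, were in none of the members' windows.

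The libraries are labelled microglia but held RNA of many brain cell types. The 9 members summed to 48.7, 46.8 and 58.9 FPKM (sequenced fragments, corrected for transcript length and library size) in the TMAO libraries and to 72.7, 45.2 and 43.2 FPKM in the vehicle libraries. The 15 neuron markers summed to 1798 to 2185 FPKM in TMAO and 571 to 1853 FPKM in vehicle. Vehicle replicate 1 stood apart. Across genes, which are not independent, its log2 values correlated with those of the other 5 libraries at 0.804 to 0.896, while r between any 2 of the other 5 was 0.959 to 0.986. It held the lowest neuron sum and the lowest value of each neuron marker except Gad1, Gad2 and Nefm. Gad1 and Gad2 were highest in this library, at 49.1 and 50.2 FPKM. Its border macrophage, neutrophil and fibroblast marker sums were 8.32, 7.19 and 7.56 times the mean of the others. Vehicle replicate 2 was shifted the same way to a lesser degree, with a border macrophage sum of 23.7 FPKM against 5.89 to 11.7 FPKM in TMAO. Markers of other cells separated all 3 TMAO from all 3 vehicle libraries. The 13 oligodendrocyte markers summed to 445 to 708 FPKM in TMAO and 846 to 1069 FPKM in vehicle, and the 7 erythroid markers to 135 to 154 FPKM in TMAO and 250.8 to 634 FPKM in vehicle. Without vehicle replicate 1 the median log2 differences of these lists were -0.67 and -0.99. Their part in the members' values was not tested. Results are given with and without vehicle replicate 1. In such bulk RNA fewer microglia and less RNA per microglial cell cannot be told apart.

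No member passed the test of TMAO against vehicle over all genes. Of the 14206 genes tested with limma on the log2(FPKM + 1) scale, 0 (0%) were under an adjusted p of 0.05, and 0.404 was the lowest value reached by a member. At an unadjusted p under 0.05 there was 1 member, P2ry12, higher in TMAO, where 12.1% of all genes were at that level, 4.84% higher and 7.22% lower. The mean was higher in TMAO in 6 of the 9 members on the log2 scale, against 46.8% of all genes. It was higher in 7 members under quantile normalization, against 53.4% of all genes, and in 8 under median scaling, against 55.5%. The members' median log2 difference was 0.19, and that of all genes tested was -0.027. Without vehicle replicate 1 the mean was higher in 8 of 9 members, against 45.4% of all genes, with a median of 0.29. The members at an unadjusted p under 0.05 without that library were P2ry13, Tmem119 and Selplg, 3 of 9 and all higher, against 6.98% of all genes higher and 10.2% lower. None of them passed the adjusted threshold (adjusted p = 0.193 by limma at the lowest). With all 6 libraries the groups did not overlap in 1 of the 9 members, P2ry13, against 29.5% of all genes, 12.1% higher and 17.5% lower in TMAO. Without vehicle replicate 1 there were 3 such members, all higher, against 37.3% of all genes, 15.6% higher and 21.7% lower.

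**Figure D1:**
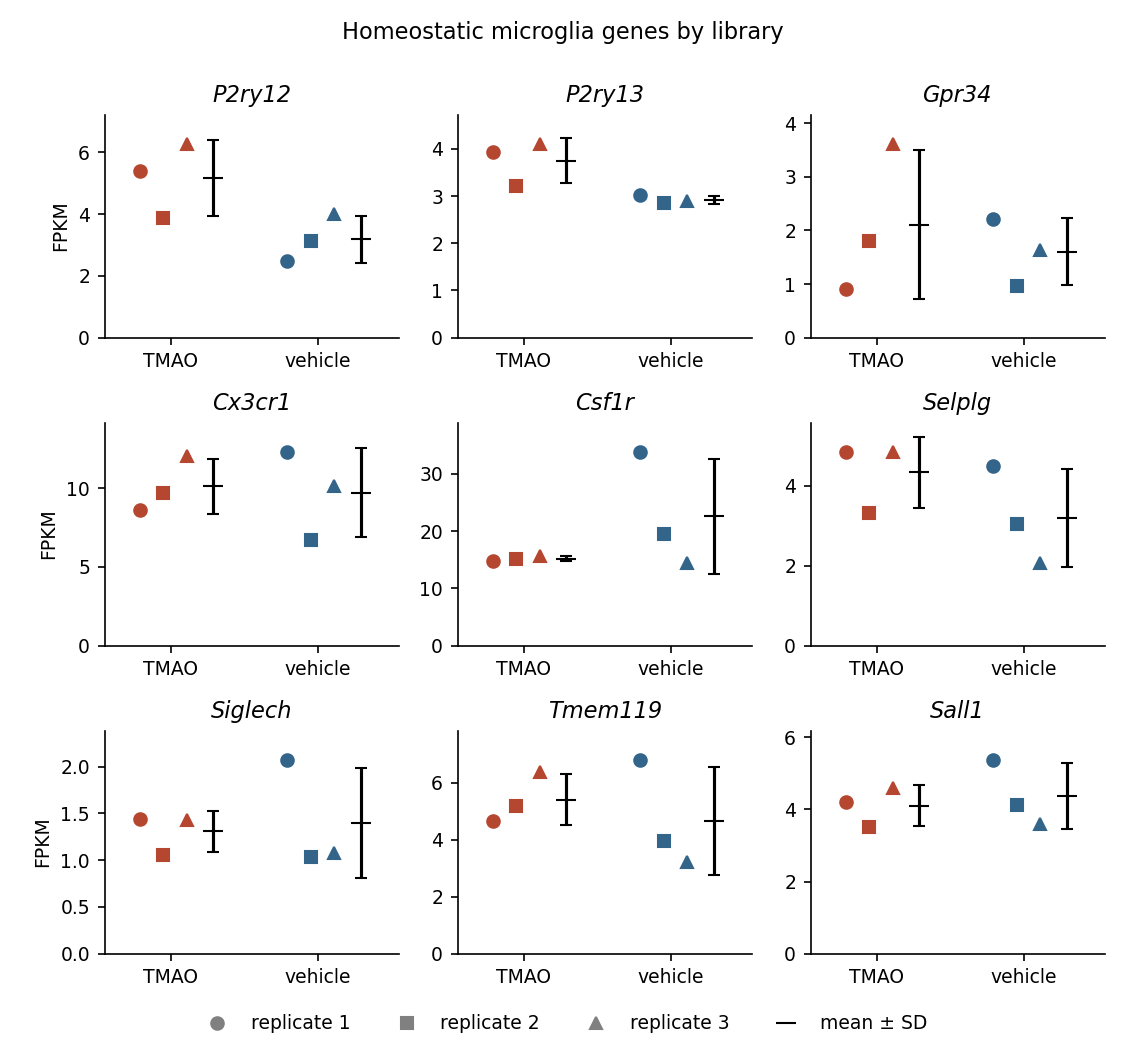
FPKM of each of the 9 genes (y axis, from 0) in the 3 TMAO and 3 vehicle libraries, with marker shape for replicate number and bars for the mean ± SD of a group. Only P2ry13 separates the groups fully, and vehicle replicate 1 is the highest vehicle value in every panel except P2ry12.

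The purinergic receptor genes had the smallest p of the members. P2ry12, the ADP receptor that directs microglial processes towards injury, had 5.39, 3.87 and 6.29 FPKM in the TMAO libraries and 2.47, 3.12 and 3.99 FPKM in the vehicle libraries. The groups overlapped, because vehicle replicate 3 lay above TMAO replicate 2. The means were 5.18 ± 1.22 FPKM in TMAO and 3.19 ± 0.762 FPKM in vehicle (SD, n = 3 each), a ratio of 1.62. Its log2 difference was 0.56 (SE 0.21, unadjusted limma p of 0.0350, adjusted p = 0.404), and 0.43 without vehicle replicate 1 (adjusted p = 0.305 by limma). The 8 platelet markers summed to 2.03, 2.26 and 1.42 FPKM in TMAO and 38.5, 6.92 and 2.77 FPKM in vehicle. Pf4, which is also a border macrophage marker, made up 29.5 FPKM of the sum in vehicle replicate 1, and Ppbp made up 6.31 FPKM. Pf4, Itga2b and Gp1ba were lower in every TMAO library than in any vehicle library. Mean Itga2b was 0.507 FPKM in TMAO and 1.17 FPKM in vehicle, and mean Gp1ba was 0.207 and 0.464 FPKM. Ppbp, Gp5, Gp6, Gp9 and Treml1 overlapped between the groups. Gp5 had 0.205 to 0.443 FPKM in TMAO and 0.219 to 0.332 FPKM in vehicle. All these markers were below the filter for testing. The part of platelets in the P2ry12 value was not tested.

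P2ry13, a second ADP receptor, had 3.93, 3.21 and 4.11 FPKM in TMAO and 3.02, 2.85 and 2.90 FPKM in vehicle. Every TMAO library lay above every vehicle library, and the 3 vehicle libraries were within a narrow range. The log2 difference was 0.27 (SE 0.12, unadjusted limma p of 0.0611, adjusted p = 0.404), and 0.29 without vehicle replicate 1 (adjusted p = 0.277 by limma). Over the 6 libraries P2ry12 and P2ry13 correlated at 0.869 on the log2 scale, a description of libraries of which 1 stands apart. Of 14206 genes, with the gene itself included in each count, 441 correlated more closely with P2ry12 and 80 with P2ry13.

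Med12l, which encloses both genes on the opposite strand, was also higher in the TMAO libraries. It had 3.34, 3.57 and 3.75 FPKM in TMAO and 1.68, 2.75 and 2.63 FPKM in vehicle, without overlap (limma log2 difference 0.46, SE 0.16, adjusted p = 0.404). It shares 9 of the 2546 exon bases of P2ry12 and 0 of the 2528 of P2ry13. The sources used here do not state whether counting used strand, so intronic Med12l reads and reads of the 2 receptors may not be separated, and the part of Med12l in their values was not tested. P2ry14, another receptor gene of this region, was also higher in each TMAO library, at 0.325, 0.246 and 0.268 FPKM against 0.0987, 0.140 and 0.188 FPKM in vehicle, below the filter for testing.

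**Figure D2:**
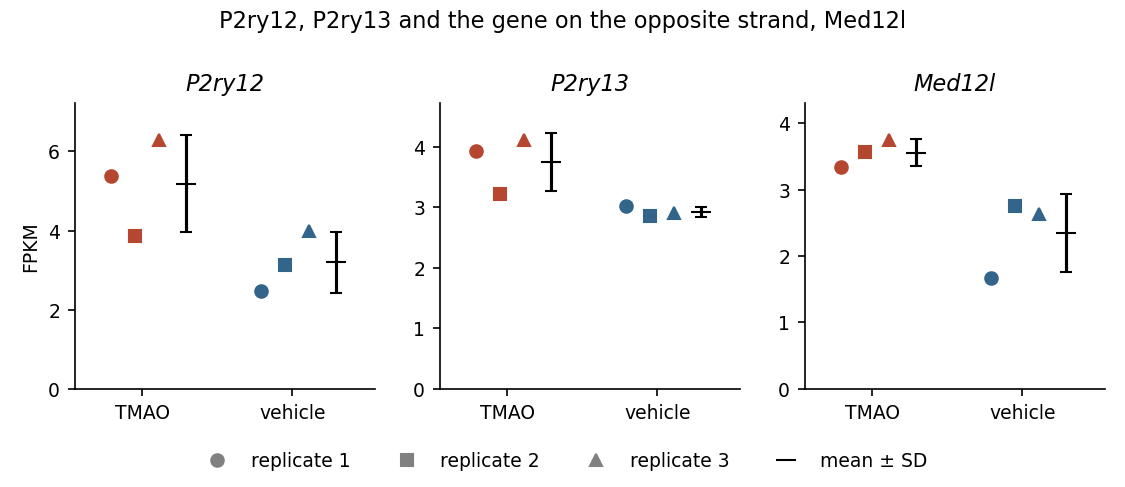
FPKM (y axis, from 0) of P2ry12, P2ry13 and Med12l in the 3 TMAO and 3 vehicle libraries, with bars for the mean ± SD of a group. P2ry13 and Med12l do not overlap between the groups, and vehicle replicate 1 is lowest for P2ry12 and Med12l.

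Gpr34, a receptor for lysophosphatidylserine, was the most variable member, with a highest value 4.02 times its lowest. It had 0.900, 1.80 and 3.62 FPKM in TMAO and 2.21, 0.968 and 1.64 FPKM in vehicle. The TMAO libraries held both the lowest and the highest of the 6 values, and the groups overlapped (limma log2 difference 0.19, SE 0.36, adjusted p = 0.765). Cask, the gene around it, varied little, from 7.12 to 7.62 FPKM in TMAO and 7.04 to 7.57 FPKM in vehicle.

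Csf1r (ENSMUSG00000024621, chromosome 18), the receptor for CSF1 and IL-34, had the highest level of the members. It had 14.7, 15.2 and 15.6 FPKM in TMAO and 33.9, 19.4 and 14.5 FPKM in vehicle. The TMAO libraries were close together, with an SD of 2.92% of their mean against 44.5% in vehicle, and vehicle replicate 3 lay below all 3 of them. The log2 difference was -0.46 (SE 0.29, adjusted p = 0.437 by limma), and -0.14 when vehicle replicate 1 was left out. Border macrophages also express Csf1r, and their 10 markers summed to 5.89, 11.7 and 7.27 FPKM in TMAO and 94.5, 23.7 and 8.28 FPKM in vehicle. The part of these cells in the Csf1r value was not tested. Hmgxb3, on the opposite strand, shares 873 of the 5774 exon bases of Csf1r, so reads there may not be separated. It ranged from 2.79 to 3.32 FPKM in TMAO and from 2.74 to 3.24 FPKM in vehicle.

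Cx3cr1, the fractalkine receptor, had 8.62, 9.70 and 12.1 FPKM in TMAO and 12.3, 6.70 and 10.2 FPKM in vehicle. The groups overlapped, with a log2 difference of 0.077 (SE 0.23, adjusted p = 0.852 by limma). It was 0.25 when vehicle replicate 1 was left out. Its 95% interval with all 6 libraries, -0.48 to 0.64, includes differences in either direction. Other genes overlap the annotated Cx3cr1 gene, and Gm33858, on the opposite strand, shares 78 of its 4505 exon bases. Wdr48 (opposite strand, 0 shared) had 9.26, 10.4 and 9.98 FPKM in TMAO and 6.74, 8.07 and 8.92 FPKM in vehicle. Csrnp1 (same strand, 0 shared) had 3.27, 6.03 and 4.25 FPKM in TMAO and 39.9, 10.3 and 6.16 FPKM in vehicle. Reads of these genes may not be separated, and their part in the Cx3cr1 value was not tested.

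The surface genes Tmem119 and Selplg had larger differences without vehicle replicate 1. Tmem119, a transmembrane protein used as a microglial stain, had 4.64, 5.18 and 6.38 FPKM in TMAO and 6.81, 3.95 and 3.21 FPKM in vehicle. Every TMAO library lay above vehicle replicates 2 and 3 and below vehicle replicate 1. The log2 difference was 0.22 (SE 0.25, adjusted p = 0.614 by limma). With vehicle replicate 1 left out it was 0.48 (unadjusted p of 0.0134, adjusted p = 0.193). Selplg, the P-selectin ligand PSGL-1, had 4.85, 3.31 and 4.83 FPKM in TMAO and 4.50, 3.03 and 2.06 FPKM in vehicle. Here too every TMAO library exceeded vehicle replicates 2 and 3. Its log2 difference was 0.37 (SE 0.25, adjusted p = 0.447 by limma). With vehicle replicate 1 left out it was 0.59 (unadjusted p of 0.0172, adjusted p = 0.205).

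Siglech and Sall1 showed the smallest differences. Siglech, a sialic acid-binding lectin, had 1.44, 1.06 and 1.43 FPKM in TMAO and 2.07, 1.03 and 1.08 FPKM in vehicle, with vehicle replicate 1 above all others. Its log2 difference was -0.031 (SE 0.20, adjusted p = 0.930 by limma), but 0.021 under median scaling and 0.16 without vehicle replicate 1. The 9 plasmacytoid dendritic cell markers summed to 61.0 to 65.2 FPKM in TMAO and 60.8 to 62.1 FPKM in vehicle, and of the 6 tested 3 were higher and 3 lower. Pacsin1, which neurons also express, had 39.33 to 41.97 FPKM in TMAO and 17.2 to 37.8 FPKM in vehicle. Bst2 had 2.42, 3.83 and 3.76 FPKM in TMAO and 21.7, 6.77 and 6.11 FPKM in vehicle, without overlap and highest in vehicle replicate 1, as Siglech was. Ccr9 had 0.0105 to 0.0588 FPKM in TMAO and 0.0408 to 0.0551 FPKM in vehicle. The part of these cells in the Siglech value was not tested. Sall1 (ENSMUSG00000031665, chromosome 8), which among brain macrophages is largely restricted to microglia, had 4.22, 3.50 and 4.61 FPKM in TMAO and 5.38, 4.12 and 3.61 FPKM in vehicle. The groups overlapped (log2 difference -0.065, SE 0.16, adjusted p = 0.823 by limma), and the difference was 0.0058 under median scaling and 0.067 without vehicle replicate 1.

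**Figure D3:**
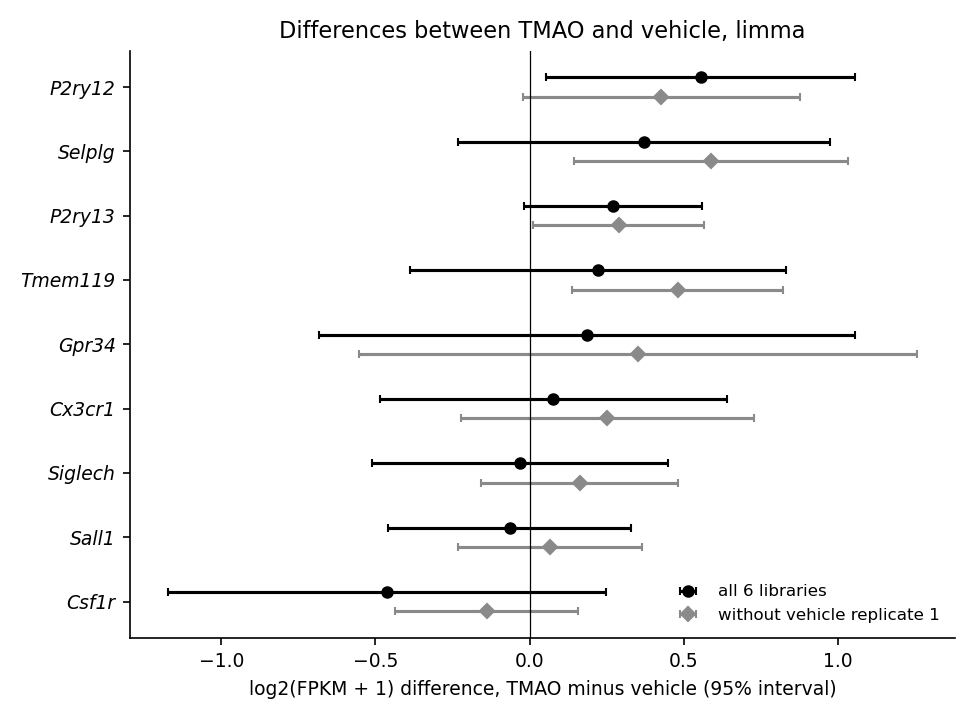
Difference of TMAO minus vehicle on the log2(FPKM + 1) scale (x axis) for each of the 9 genes (y axis), with 95% intervals from limma with all 6 libraries (black) and without vehicle replicate 1 (grey). The interval excludes 0 for P2ry12 with all 6 libraries, and for Selplg, P2ry13 and Tmem119 without vehicle replicate 1, before adjustment over all genes.

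The authors' deposited table called 0 of the 9 members and 6.38% of all genes. In the authors' deposited table P2ry12 has the smallest p of the members (fold of 1.62, p of 0.0187, q of 0.294), followed by P2ry13 (fold of 1.28, q of 0.480) and Csf1r (fold of 0.671, q of 0.622).

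The levels spanned a wide range, and their order differed between the groups. Csf1r was the highest, and its range over the 6 libraries (14.5 to 33.9 FPKM) did not overlap that of Cx3cr1 (6.70 to 12.3 FPKM). Cx3cr1 was above Tmem119 in 6 of 6 libraries, but their ranges met. Tmem119, P2ry12, Selplg, Sall1 and P2ry13 formed a middle group from 2.06 to 6.81 FPKM, and neighbours among them did not differ beyond their spread over libraries. P2ry12 was above Sall1 in 3 of 3 TMAO libraries and in 1 of 3 vehicle libraries. Gpr34 and Siglech were the lowest, with means over the 6 libraries of 1.86 and 1.35 FPKM, and Gpr34 was above Siglech in 4 of 6 libraries.

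Relative to each other, Csf1r took a smaller share of the 9-gene sum in TMAO. Csf1r made up 30.2%, 32.4% and 26.5% of the 9-gene sum in the TMAO libraries and 46.6%, 43.0% and 33.6% in the vehicle libraries, with no overlap. P2ry12 made up 11.1%, 8.26% and 10.7% in TMAO and 3.40%, 6.89% and 9.25% in vehicle. The shares of P2ry13, Tmem119 and Selplg were higher in every TMAO library than in all 3 vehicle libraries. These shares sum to a fixed total, so a lower share of Csf1r raises the others. Sall1 held 7.99% ± 0.603 in TMAO and 8.30% ± 0.857 in vehicle, and Siglech held 2.55% ± 0.363 in TMAO and 2.55% ± 0.285 in vehicle (SD, n = 3 each).

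Relative to pan-myeloid genes, those shared among myeloid cells, the 9-gene sum was higher in every TMAO library than in any vehicle library. The 9 genes came to 31.6%, 27.2% and 35.6% of the summed FPKM of 15 pan-myeloid genes in TMAO and to 10.1%, 15.6% and 25.3% in vehicle. Without Csf1r the ratio was 22.0%, 18.4% and 26.2% in TMAO and 5.39%, 8.88% and 16.8% in vehicle. Neither ratio overlapped between the groups, with or without vehicle replicate 1. No test was made of these ratios, and the part of neutrophils and border macrophages in the pan-myeloid sum was not tested. The pan-myeloid sum itself was 154, 172 and 165 FPKM in TMAO and 720, 290 and 170 FPKM in vehicle. The 9-gene sum overlapped, with means of 51.5 FPKM in TMAO and 53.7 FPKM in vehicle.

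**Figure D4:**
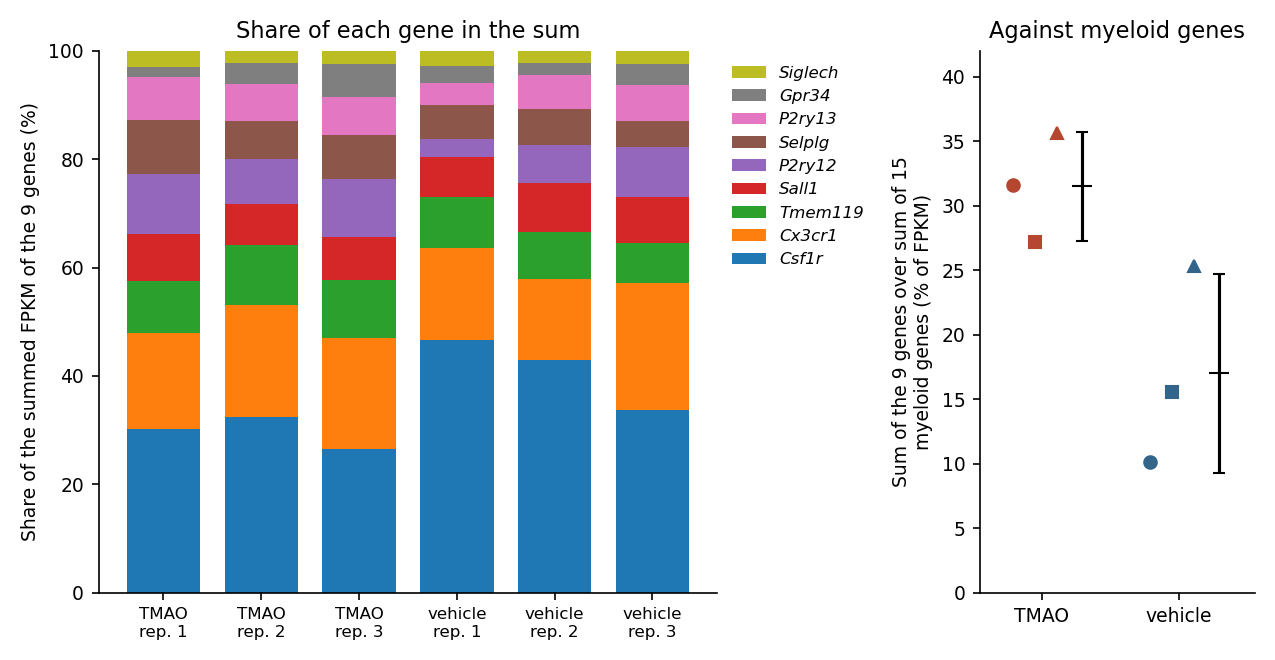
Left, the share of each gene in the summed FPKM of the 9 genes (y axis, percent) in each TMAO and vehicle library. Right, the sum of the 9 genes as a percentage of the sum of 15 pan-myeloid genes, with bars for the mean ± SD. The Csf1r share (bottom) is 26.5% to 32.4% in TMAO and 33.6% to 46.6% in vehicle, and the ratio on the right does not overlap.

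Most other homeostatic genes that could be tested had lower means in TMAO. Of 26 listed, 22 could be tested, and 4 were higher and 18 lower in TMAO, where 46.8% of all genes were higher. The median of their log2 differences was -0.49. Without vehicle replicate 1, 7 were higher and 15 lower, with a median of -0.098. The part of other cells in these values was not tested. At an unadjusted p under 0.05 there were 0 higher and 1 lower, against 4.84% and 7.22% of all genes. That was P2ry6, a UDP receptor linked to phagocytosis, at 1.47, 1.43 and 1.43 FPKM in TMAO and 5.41, 2.41 and 1.97 FPKM in vehicle (log2 difference -0.72, adjusted p = 0.404 by limma). The Fc receptor-like gene Fcrls had 4.73, 13.6 and 12.1 FPKM in TMAO and 34.1, 19.7 and 14.2 FPKM in vehicle. Entpd1, the ectonucleotidase CD39 that removes the nucleotides P2RY12 senses, had 1.86, 2.70 and 2.69 FPKM in TMAO and 20.4, 8.20 and 2.55 FPKM in vehicle. P2ry6 and Fcrls did not overlap between the groups, Entpd1 did, and vehicle replicate 1 was the highest library for all 3. Crybb1, a crystallin gene below the filter for testing, had 0.872, 1.11 and 1.32 FPKM in TMAO and 0.349, 0.340 and 0.147 FPKM in vehicle, every TMAO library above every vehicle library.

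Transcription factors of the microglial programme also mostly had lower means in TMAO. Of 11 tested 1 was higher and 10 lower, where 46.8% of all genes were higher. Their median was -0.35 (-0.14 without vehicle replicate 1). At an unadjusted p under 0.05 were 0 higher and 2 lower, against 4.84% and 7.22% of all genes. The 1 higher was Mef2c, which neurons also express, with 30.5, 36.0 and 38.8 FPKM in TMAO and 6.24, 25.5 and 30.3 FPKM in vehicle. Its groups did not overlap (log2 difference 0.98, SE 0.55, adjusted p = 0.417 by limma), and the difference was 0.32 without vehicle replicate 1, the library with the lowest neuron sum. Cebpa, a myeloid lineage factor, had 3.38, 3.77 and 2.43 FPKM in TMAO and 9.57, 5.92 and 4.71 FPKM in vehicle. Spi1, which encodes PU.1, had 1.25, 1.61 and 1.44 FPKM in TMAO and 7.48, 3.13 and 2.20 FPKM in vehicle. Neither overlapped between the groups (adjusted p = 0.404 by limma for both). Bhlhe41 had 5.52, 3.79 and 3.91 FPKM in TMAO and 6.88, 4.92 and 6.65 FPKM in vehicle, with overlap.

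Of 14 tested genes for ligands, signals and enzymes linked to the members or to microglia, 3 were higher and 11 lower. Among all genes 46.8% were higher. The median of the 14 was -0.31 (-0.16 without vehicle replicate 1). At an unadjusted p under 0.05 there were 0 higher and 1 lower, Csf1, against 4.84% and 7.22% of all genes. This CSF1R ligand had 4.93, 6.00 and 3.95 FPKM in TMAO and 26.6, 9.74 and 8.21 FPKM in vehicle, without overlap (log2 difference -1.24, adjusted p = 0.404 by limma), and its difference was -0.75 without vehicle replicate 1. Il34, the other CSF1R ligand, had 13.9, 12.2 and 13.1 FPKM in TMAO and 10.4, 13.5 and 15.1 FPKM in vehicle, with overlap. Adam10, which sheds fractalkine from the cell surface, had 14.70, 14.96 and 14.77 FPKM in TMAO and 23.8, 18.7 and 15.8 FPKM in vehicle. Pla1a, which makes the lysophosphatidylserine that GPR34 binds, had 1.68, 2.31 and 1.5 FPKM in TMAO and 14.1, 3.49 and 2.41 FPKM in vehicle. For both genes all 3 TMAO libraries lay below all 3 vehicle libraries. Il34 was chosen after its values were seen.

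Genes shared among myeloid cells, and those of disease-associated microglia, had larger negative medians. Of 13 tested pan-myeloid genes 1 was higher and 12 lower, where 46.8% of all genes were higher. Their median was -1.02 (-0.43 without vehicle replicate 1), and 1 was lower at an unadjusted p under 0.05, where 7.22% of all genes were lower. Fcgr3, an Fc receptor, had 13.8, 18.0 and 15.8 FPKM in TMAO and 32.8, 23.0 and 18.1 FPKM in vehicle. Itgam, which encodes CD11b, had 3.23, 5.18 and 4.37 FPKM in TMAO and 31.3, 12.7 and 5.01 FPKM in vehicle. Cyba, an NADPH oxidase subunit, had 3.97, 6.24 and 5.01 FPKM in TMAO and 34.6, 11.1 and 6.72 FPKM in vehicle. Fcgr3 and Cyba did not overlap between the groups, and Itgam did. Of 19 tested disease-associated genes 0 were higher and 19 lower, where 46.8% of all genes were higher. Their median was -1.03 (-0.47 without vehicle replicate 1), and 7 were at an unadjusted p under 0.05, against the same 7.22%. The 3 with the smallest p, Ccl6, Lpl and Cd9, had log2 differences without vehicle replicate 1 of -1.56, -1.02 and -0.94. None of them passed the test over all genes (adjusted p = 0.404 by limma for each). Of other tested markers, 13 of 13 oligodendrocyte, 5 of 5 neutrophil, 8 of 10 endothelial and 6 of 11 astrocyte genes were lower. Of the neuron genes 11 of 15 were higher, with a median of 0.51. Without vehicle replicate 1, 13 oligodendrocyte, 4 neutrophil, 6 endothelial and 3 astrocyte genes were lower, where 45.4% of all genes were higher. Then 10 neuron genes were higher, with a median of 0.068. The part of other cells in the disease-associated and pan-myeloid values was not tested.

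Tested genes that are no member and carry no clone, Gm or Rik name were searched for patterns like those of the members. The genes most similar in pattern to each member were found by Pearson's r of log2(FPKM + 1) over the 6 libraries. They were Mbd4 (0.994) and Ncaph2 (0.990) for P2ry12, Nr2f1 (0.982) and Cenpc1 (0.981) for P2ry13, and Pex6 (0.984) and Frmd6 (0.973) for Gpr34. For Csf1r they were Rasgrp3 and Lama5 (0.999 for both), and for Cx3cr1 Zcchc10 (0.986) and Ntng1 (0.981). For Tmem119 they were Rictor (0.993) and Itgav (0.992), and for Selplg Zfp960 (0.979) and Slc25a18 (0.975). For Siglech they were Dynlt1f (0.993) and Rasgrp2 (0.988), and for Sall1 Pold3 (0.979) and Pde9a (0.969). These values describe 6 libraries, of which 1 stands apart, and say nothing of shared function or control. Among the members themselves the 36 pairs ranged from -0.761 (Csf1r and P2ry12) to 0.911 (Sall1 and Siglech), with a median of 0.363, and 32 pairs were above 0.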

How the data were processed

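Both deposited tables hold 1 set of values in 2 row orders, with FPKM of 36758 genes per the file headers. Beside FPKM the authors gave, per gene, a fold (ratio of mean FPKM, TMAO over vehicle), the log2 of that fold, a p-value and a q-value. Reads were trimmed with cutadapt 1.9, and the build mm9 is named, per the submitters' processing notes. Aligner, quantifier and strand use: not given in the sources used here. GENCODE M21 (GRCm38) holds 99.6% of the gene IDs and gave the positions by gene ID.

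FPKM were transformed to log2(FPKM + 1), which understates changes of low genes. Genes at 1 FPKM or more in at least 3 libraries, 14206 in all, entered a fit by limma 3.58.1 (R 4.3.3, trend and robust estimation, two-sided, Benjamini-Hochberg over all genes, threshold 0.05). The test was checked on simulated data. Read depth is unknown, since only 16.9% to 18.8% of low values came within 2% of whole multiples of a common step.

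The members and gene lists were chosen with earlier results of these data known. All members are named. The other genes named are the 3 with the smallest p of each list, and the 2 most similar in pattern to each member. Genes with clone, Gm or Rik names were left out of the search for similar genes. Genes of the P2ry12, Gpr34, Csf1r and Cx3cr1 loci, Crybb1, Mef2c, Il34, Cx3cl1 and single markers were chosen after their values were seen. Alternatives covered normalization, pseudocount, filter, variance model, a replicate block and leaving out each library. Figures were drawn with matplotlib 3.10.9.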

Additional observations from a re-analysis of the deposited data

How the results depend on the processing

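By limma, 0 genes passed the adjusted threshold in any of the alternatives run. The number of genes at an unadjusted p under 0.05 was 1712 with all 6 libraries, 1074 with array weights, and 528 to 3365 when single libraries were left out, lowest without TMAO replicate 3 and highest without vehicle replicate 3. The number of members at an unadjusted p under 0.05 was 1, beside 12.1% of all genes. It was 2 under quantile normalization, median scaling and rescaling without mitochondrially encoded genes, beside 12.6%, 12.2% and 11.5% of all genes. It was 0 with array weights, beside 7.56%, and 0 to 3 when single libraries were left out, beside 3.72% to 23.7%. The count of 3 was reached without vehicle replicate 1, beside 17.2%. When single libraries were left out, members whose TMAO libraries all lay above the vehicle libraries numbered 1 to 3. Members with a higher mean in TMAO then numbered 4 to 8. These comparisons were added after the data were seen. The matching shares of all genes are known only without vehicle replicate 1, at 15.6% and 45.4%, where 3 and 8 members were counted. Groups of fewer libraries overlap less easily, so these counts are not results about the members. Leaving out any 1 library kept the direction of P2ry12 (log2 difference 0.43 to 0.72), P2ry13 (0.22 to 0.36), Selplg (0.16 to 0.59), Tmem119 (0.034 to 0.48) and Csf1r (-0.72 to -0.14). It did not for Cx3cr1 (-0.14 to 0.25), Gpr34 (-0.15 to 0.49), Sall1 (-0.17 to 0.067) and Siglech (-0.14 to 0.16). Sall1 also changed sign under quantile normalization (0.00092), median scaling (0.0058) and array weights (0.063), Siglech under median scaling (0.021), rescaling without mitochondrially encoded genes (0.0034) and array weights (0.044), and Cx3cr1 with array weights (-0.012). The cause was not tested. Same-numbered libraries did not deviate together (correlations of -0.216, -0.0636 and -0.0153), so the numbers were not taken as pairs. With a replicate block 1259 genes and 1 member were at an unadjusted p under 0.05, and 0 passed the adjusted threshold. Gpr34 dropped out with a minimum of 1 FPKM in all 6 libraries. There were 3 libraries a group, and read depth is unknown.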
